A study of Mus musculus with 12 samples.

Results

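The 32 genes described here mark the cells that line blood and lymph vessels, and they were followed in RNA from pancreatic islets of mice that carry 2, 1 or 0 intact copies of Wfs1, the Wolfram syndrome gene. They were taken by gene symbol from a table of 24078 entries, and all 32 were present. The set holds surface and junction proteins (Pecam1, Cdh5, Icam2, Esam, Cldn5, Emcn, Plvap, Cd34) and receptors and their partners (Kdr, Flt1, Flt4, Tek, Tie1, Eng, Robo4, Ramp2). It also holds secreted, signalling and transport proteins (Vwf, Mmrn2, Nos3, Esm1, Egfl7, Rasip1, Apold1, the lipase anchor Gpihbp1 and the water channel Aqp1). The others are transcription factors (Erg, Tal1, Sox7, Sox17, Sox18) and the lymphatic genes Lyve1 and Prox1. Flt4 is also a lymphatic receptor.

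Islets came from 12 male mice aged 5 to 6 months, 4 of each genotype, with 1 library per animal: wild-type (WT), heterozygous (Wfs1HZ) and homozygous mutant (Wfs1KO). All came from the Wfs1tm1Koks line on a mixed F2 background with C57BL/6, and in the mutant allele most of exon 8 is exchanged for a LacZ cassette. The mutation is present in every cell of the animal, so vessel cells and endocrine cells both carry it. Islets were freed with collagenase, picked by hand and kept overnight in medium with 4.5 g/L glucose before RNA was extracted.

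Endothelial cells form the dense, fenestrated capillary bed of the islet, which endocrine cells attract with VEGF-A and which in turn supplies them with basement membrane. VE-cadherin (Cdh5) and PECAM-1 hold neighbouring endothelial cells together, the receptor tyrosine kinases Kdr, Flt1, Tek and Tie1 receive the growth signals, and factors of the ETS and SOX families keep the endothelial gene programme on. Lymphatic endothelium is specified by Prox1 and carries the hyaluronan receptor Lyve1. Neither of these is restricted to lymph vessels, because Prox1 is also made by islet endocrine cells and Lyve1 by some tissue macrophages.

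Promoter sequence was available for 18 of the 32 genes, with 24 start sites (RefSeq, GRCm38.p6, the assembly called mm10). The stretches of 235 bases that end 16 bases before the start site are given for Emcn, Flt1, Kdr and Eng. Emcn is a capillary sialomucin, Flt1 and Kdr are VEGF receptors and Eng is a TGF-β co-receptor. These genes were among the better measured of the set and differ in their content of CGGAAG and AGGAAG, forms of the site that ETS factors such as Erg bind. Capitals mark CGGAAG or AGGAAG on either strand.
Emcn (chr3:137340828-137341062, plus strand): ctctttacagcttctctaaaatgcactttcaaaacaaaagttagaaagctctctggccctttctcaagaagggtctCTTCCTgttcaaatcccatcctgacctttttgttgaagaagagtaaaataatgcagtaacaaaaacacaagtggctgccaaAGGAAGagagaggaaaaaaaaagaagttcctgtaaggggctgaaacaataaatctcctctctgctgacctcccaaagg
Flt1 (chr5:147726027-147726261, minus strand): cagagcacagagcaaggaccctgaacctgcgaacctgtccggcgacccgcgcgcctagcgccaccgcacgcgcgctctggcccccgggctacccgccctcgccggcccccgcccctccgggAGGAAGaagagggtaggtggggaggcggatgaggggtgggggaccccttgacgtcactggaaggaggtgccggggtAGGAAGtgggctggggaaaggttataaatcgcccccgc
Eng (chr2:32646345-32646579, plus strand): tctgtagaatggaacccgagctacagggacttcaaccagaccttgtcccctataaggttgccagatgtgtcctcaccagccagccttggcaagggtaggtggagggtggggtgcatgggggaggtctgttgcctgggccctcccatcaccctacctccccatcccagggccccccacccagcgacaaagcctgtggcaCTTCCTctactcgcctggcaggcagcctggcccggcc
Kdr (chr5:75978471-75978705, minus strand): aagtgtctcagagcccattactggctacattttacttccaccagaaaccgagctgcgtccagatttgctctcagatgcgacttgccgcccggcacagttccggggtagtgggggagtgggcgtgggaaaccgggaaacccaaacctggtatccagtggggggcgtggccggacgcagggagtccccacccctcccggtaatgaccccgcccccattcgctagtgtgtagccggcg
Emcn and Flt1 each held 2 such matches, Eng held 1 and Kdr held 0 in this window. Stretches of the shorter GGAA outside these forms, which the Kdr window also holds, were not counted. Of the 24 promoters 12 held such a match (50%), against 36.7% of all 32851 mouse promoters of the same length. At least 1 such promoter was found for 11 of the 18 genes. The GATA form AGATAA was found in 8.33% of the 24 and in 9.63% of all, and the SOX form AACAAT in 12.5% and 9.1%, again on either strand. A match of these letters is a description of the sequence.

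Expression is given as RPKM, reads scaled to transcript length and library size, so that levels of different genes can be set side by side. Prox1 was the most abundant of the set, with a mean of 43.1 RPKM over the 12 animals, followed by Emcn (27.8 RPKM), Cdh5 (21.1 RPKM), Pecam1 (15.5 RPKM) and Esm1 (8.96 RPKM). The lowest was the endothelial nitric oxide synthase Nos3, with 0.559 RPKM. The depth behind the values, estimated from very short RNA genes, where the worth of a single read can be seen, was 2906000 to 8915000 reads in WT, 2189000 to 7330000 in Wfs1HZ and 3283500 to 9556000 in Wfs1KO libraries. A count of 3 reads on a transcript of 2 kb corresponds to 0.157 RPKM in the deepest library and 0.685 RPKM in the shallowest, counting error only. The islet hormones were abundant in every library, with 6423 to 76687 RPKM of Ins2 and 50073 to 217170 RPKM of the glucagon gene Gcg. Wfs1 itself was 24.9 to 33.9 RPKM in WT, 4.69 to 16.4 RPKM in Wfs1HZ and 2.45 to 6.61 RPKM in Wfs1KO islets.

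The libraries of Wfs1HZ replicates 2 and 4 stood apart from the others, with medians over all entries of 3.37 and 0.75 RPKM against 0.99 to 1.73 RPKM in the other 10. The counts and medians of the comparisons with Wfs1HZ islets are therefore also given without them.

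**Figure D1:**
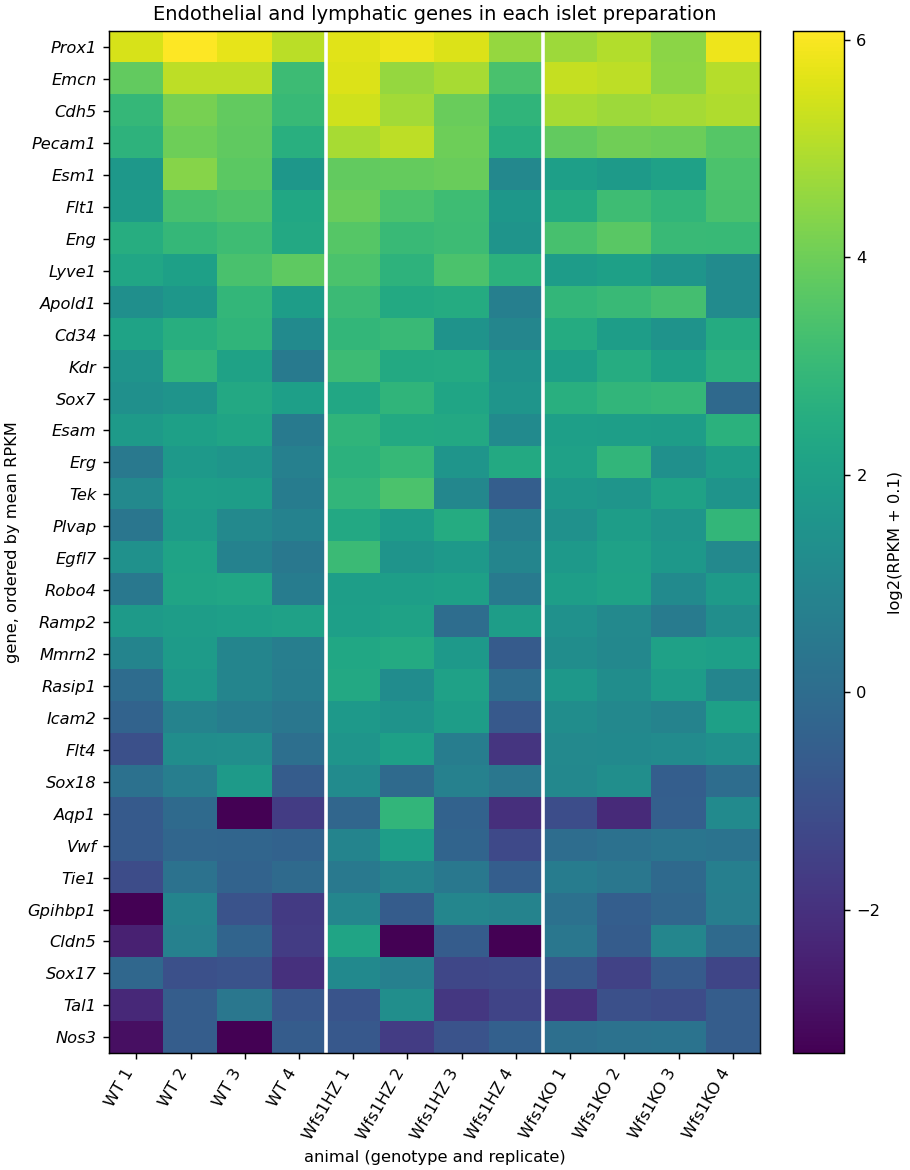
Level of the 32 genes, as log2(RPKM + 0.1), in each of the 12 islet preparations, with genes ordered from top to bottom by mean RPKM and animals grouped by genotype (white lines). Many rows are darker in WT replicates 1 and 4 and in Wfs1HZ replicate 4, and the Wfs1KO columns look more alike than those of the other genotypes.

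Within WT and Wfs1HZ, the same animals were low for most of these genes. The RPKM of the 32 genes summed to 125.0, 245.1, 221.9 and 115.6 in WT replicates 1 to 4, to 323.0, 279.7, 213.2 and 94.0 in Wfs1HZ, and to 194.4, 206.8, 173.3 and 229.3 in Wfs1KO. The genotypes overlapped, and the means were 177 ± 66.2 (SD, n = 4), 228 ± 99.8 (SD, n = 4) and 201 ± 23.4 (SD, n = 4). Prox1, which endocrine cells also make, is a large part of these sums. Without it the means were 126.9 ± 53.48, 182.5 ± 86.92 and 166.6 ± 10.45 (SD, n = 4 each), and the genotypes still overlapped. WT replicates 1 and 4 were the lowest pair of their genotype for 23 of the 32 genes (71.9%), against 24.8% of all 21701 entries tested. The same pair was lowest for other gene lists described below. In WT replicates 1 to 4 mural genes summed to 32.05, 78.26, 67.83 and 22.61 RPKM and fibroblast genes to 23.02, 52.78, 71.65 and 21.28 RPKM. Basement membrane genes summed to 52.56, 136.66, 145.9 and 59.42 RPKM. Erythroid and platelet genes summed to 7.12, 8.77, 13.47 and 8.25 RPKM and Schwann and nerve genes to 3.73, 4.82, 5.3 and 4.11 RPKM. The pair was not the lowest for VEGF signalling, immune, acinar, duct or endocrine sums. By the mean log2 level of the genes, however, it was the lowest for VEGF signalling (1.82, 2.38, 1.96 and 1.79) and immune genes (-0.08, 0.58, 0.34 and 0.22). The low pair was thus not confined to vessel genes. Wfs1HZ replicate 4 was the lowest Wfs1HZ animal for 25 of the 32 genes (78.1%), close to its share of 66.9% over all entries.

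The Wfs1KO animals were the most alike: the spread between animals on the log2 scale was smallest in Wfs1KO for 25 of the 32 genes (78.1%), against 38.0% of all entries. The median SD of a gene was 0.42 in Wfs1KO, 0.73 in WT and 0.98 in Wfs1HZ islets on the log2 scale, the Wfs1HZ libraries that stood apart included, beside 0.56, 0.53 and 0.84 over all entries. In a bulk preparation fewer endothelial cells and less RNA per endothelial cell cannot be told apart. In the WT animals Ins2 was 67080 and 76687 RPKM in replicates 1 and 4 and 15292 and 23011 RPKM in replicates 2 and 3. Within WT the animals with the lowest vessel sums thus had the highest Ins2. In Wfs1HZ replicates 1 to 4 Ins2 was 21237, 6423, 68564 and 59053 RPKM, higher in replicates 3 and 4 with the lower sums, though highest in replicate 3. In Wfs1KO replicates 1 to 4 it was 33525, 24433, 14220 and 9199 RPKM, and replicate 3, with the lowest sum, did not have the highest Ins2. RPKM are shares of a library, and the part of Ins2 in the vessel values was not tested.

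**Figure D2:**
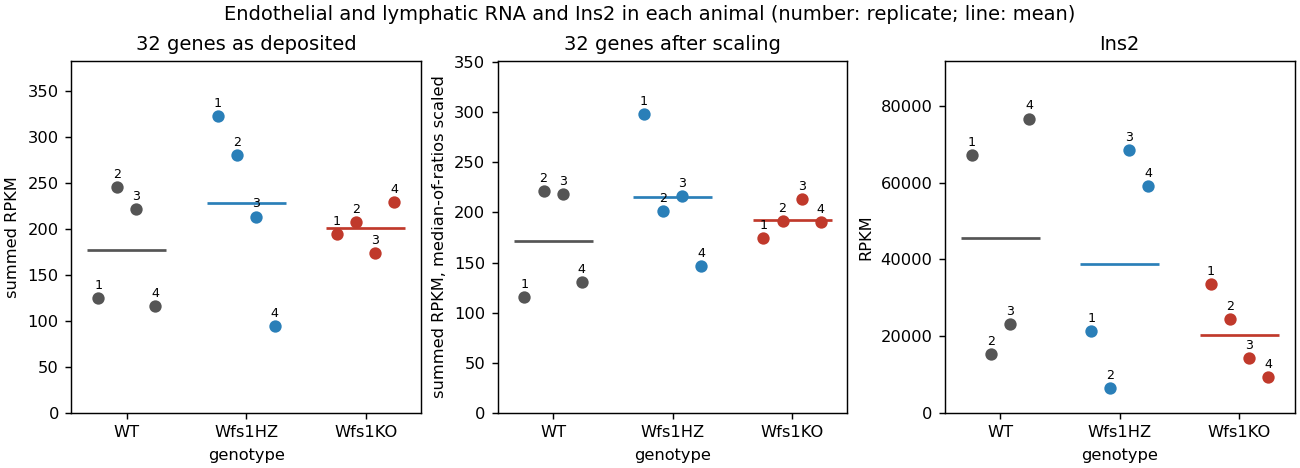
Summed RPKM of the 32 genes as deposited (left), the same after median-of-ratios scaling of the libraries (middle) and RPKM of Ins2 (right) in each animal, by genotype, with points numbered by replicate and a line at the mean of 4 animals. The sums overlap between genotypes and lie closest together in Wfs1KO, at 173.3 to 229.3 as deposited and 174.4 to 213.3 after scaling.

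The comparison of Wfs1KO with WT islets asked which vessel genes differ in the absence of intact Wfs1. No gene of the set passed an FDR of 0.05 or 0.2 (limma, Benjamini-Hochberg over 21701 entries), and the lowest adjusted p was 0.5. Over all entries 0.0138% passed the first threshold and 0.0461% the second. At an unadjusted p under 0.05 there were 5 of the 32 genes (15.6%), against 5.64% of all entries: Cdh5, Nos3 and Icam2 were higher in Wfs1KO (3.91% of all entries) and Ramp2 and Lyve1 lower (1.74% of all entries). In all, 24 genes were higher and 8 lower, with a median log2 fold change of 0.53, beside 0.07 over all entries, 57.4% of which were higher. The 32 genes were measured in the same animals, and in WT most share the low pair of animals. They are not independent observations of the genotype. The count of 5 went down to 3 without WT replicate 1, WT replicate 4 or Wfs1KO replicate 2 and up to 11 without WT replicate 2.

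**Figure D3:**
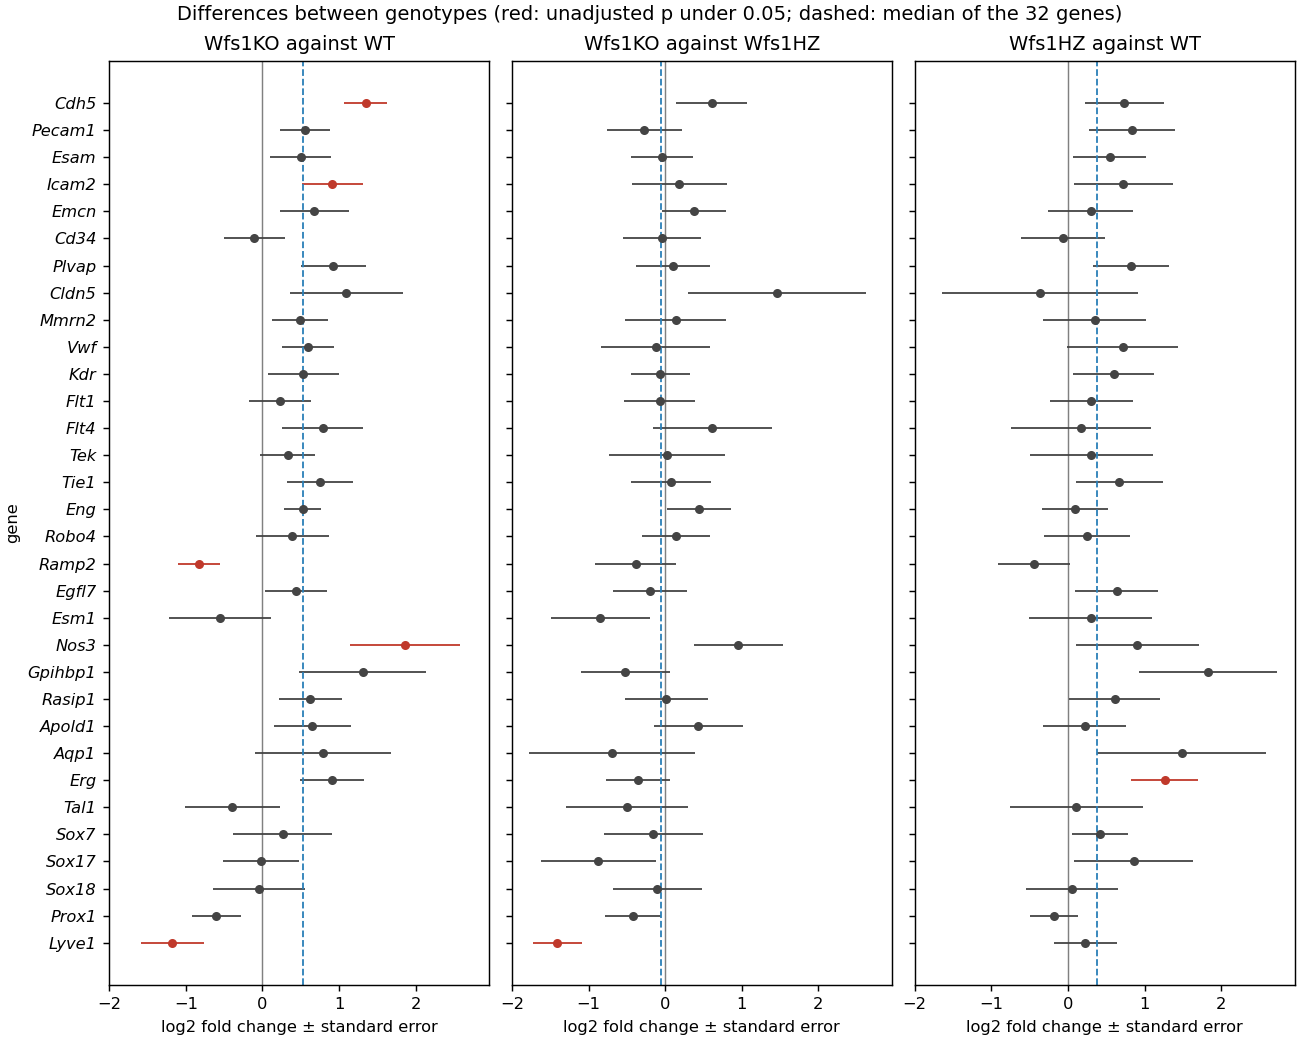
Log2 fold change of each of the 32 genes in the 3 pairwise comparisons, on the log2(RPKM + 0.1) scale, with bars of 1 standard error from limma on either side; red marks an unadjusted p under 0.05 and the dashed line the median of the 32 genes. Most genes lie to the right of 0 in Wfs1KO against WT (24 of 32) and Wfs1HZ against WT (28 of 32).

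Cdh5 encodes VE-cadherin, the adhesion protein of endothelial junctions (ENSMUSG00000031871.9, mm10 chr8:104101625-104144511, plus strand). It was 7.61, 17.91, 14.11 and 7.95 RPKM in WT, 41.94, 27.02, 15.11 and 7.0 RPKM in Wfs1HZ, and 28.98, 25.65, 28.32 and 31.19 RPKM in Wfs1KO replicates 1 to 4. Every Wfs1KO animal was above every WT animal, while the Wfs1HZ animals spanned both groups. Such a lack of overlap, in either direction, was seen for 2.74% of all entries, and in the upward direction for 1.75%. The log2 fold change of Cdh5 in Wfs1KO against WT was 1.35 ± 0.28 (SE; 95% confidence interval 0.71 to 1.98), a fold of 2.55, with an unadjusted limma p of 9.4e-04 and an adjusted p of 0.5. The exact permutation test gave p = 0.029, the smallest value that 4 against 4 animals allow. The values rest on an estimated 140 to 1106 reads per library.

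Pecam1, its companion at the same junctions, did not follow it to the same extent (chr11:106654217-106750628, minus strand). It was 6.69, 16.12, 13.74 and 6.07 RPKM in WT, 28.51, 35.52, 15.88 and 5.70 RPKM in Wfs1HZ, and 13.91, 16.50, 15.54 and 12.07 RPKM in Wfs1KO. The Wfs1KO animals lay between the lower and the upper WT pair or level with the upper one, 1 of them just above the highest WT animal, with a log2 fold change of 0.56 ± 0.33 (SE; limma unadjusted p = 0.12, adjusted p = 0.879).

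Icam2, an adhesion molecule for leukocytes (chr11:106377656-106388075, minus strand), was measured at low levels of 0.69, 1.75, 1.49 and 1.22 RPKM in WT, 3.28, 2.78, 3.67 and 0.52 RPKM in Wfs1HZ, and 2.36, 1.98, 1.73 and 3.97 RPKM in Wfs1KO. One Wfs1KO animal lay just below the highest WT animal. Its log2 fold change was 0.91 ± 0.40 (SE; limma unadjusted p = 0.048, adjusted p = 0.879), and the exact permutation p was 0.057, on 3.35 to 34.5 estimated reads. The unadjusted p went above 0.05 without WT replicate 1, 3 or 4 or Wfs1KO replicate 1, 2 or 4. Emcn, the sialomucin of capillaries and veins (chr3:137341067-137432185, plus strand), was 14.03, 35.22, 35.41 and 8.55 RPKM in WT, 47.97, 23.97, 28.99 and 10.35 RPKM in Wfs1HZ, and 38.28, 35.57, 22.13 and 32.80 RPKM in Wfs1KO. The 3 genotypes overlapped throughout, and the WT animals fell into the same low pair and high pair as for Pecam1. Plvap, which forms the diaphragms of fenestrated capillaries, had a log2 fold change of 0.93 ± 0.43 (SE; limma unadjusted p = 0.057). Esam (0.50), Mmrn2 (0.49), Cldn5 (1.10) and Cd34 (-0.11) had limma intervals that included 0.

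**Figure D4:**
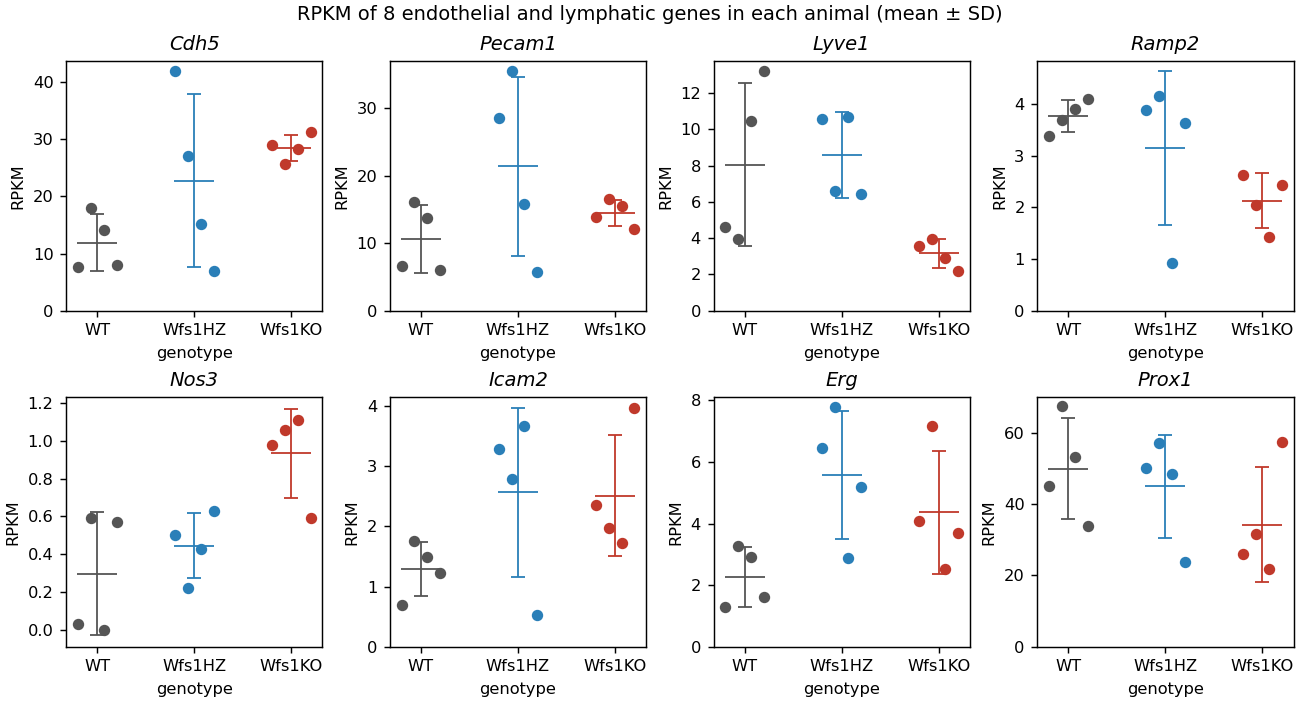
RPKM of 8 of the genes in each animal, by genotype, with the mean and SD of 4 animals. Wfs1KO lies above all WT animals for Cdh5 and below them for Ramp2, and below all Wfs1HZ animals for Lyve1.

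Among the receptors, none of the tyrosine kinases differed beyond the spread between animals in Wfs1KO against WT. The log2 fold changes were 0.53 ± 0.46 (SE) for Kdr, the main receptor of VEGF-A, 0.23 ± 0.40 for Flt1, which also acts as a trap for the ligand, and 0.79 ± 0.53 for Flt4, the receptor of VEGF-C. They were 0.33 ± 0.35 for the angiopoietin receptor Tek and 0.75 ± 0.43 for its partner Tie1. Eng, the endothelial co-receptor of BMP9, had a log2 fold change of 0.53 ± 0.24 (SE; limma unadjusted p = 0.057), and Robo4, a guidance receptor of vessels, 0.39 ± 0.48. The 95% confidence interval of Kdr, -0.51 to 1.58, includes 0 and also the log2 fold change of Cdh5 given above.

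Ramp2, which turns the calcitonin receptor-like receptor into a receptor for adrenomedullin, went the other way (ENSMUSG00000001240.13, chr11:101246028-101259546, plus strand). It was 3.38, 3.70, 3.91 and 4.10 RPKM in WT, 3.88, 4.16, 0.93 and 3.64 RPKM in Wfs1HZ, and 2.62, 2.04, 1.42 and 2.43 RPKM in Wfs1KO. All Wfs1KO animals were below all WT animals, a pattern seen in this direction for 0.991% of all entries, and 3 of the 4 Wfs1HZ animals lay with the WT animals or close to them. The log2 fold change was -0.83 ± 0.27 (SE; 95% confidence interval -1.44 to -0.22), with a limma unadjusted p of 0.013, an adjusted p of 0.835 and an exact permutation p of 0.029. Only 10.1 to 48.8 reads per library stand behind the gene by estimate. Its exons share 1103 bases on the same strand with those of Vps25, a subunit of the ESCRT-II complex at 37.1 to 68.3 RPKM, so the division of reads between both genes is uncertain. Vps25 itself had a log2 fold change of -0.08 ± 0.21 (SE).

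Of the secreted, signalling and transport proteins, Nos3, the endothelial nitric oxide synthase (ENSMUSG00000028978.12, chr5:24364810-24384474, plus strand), had the largest difference of the set on the log2 scale. It was listed at 0.03, 0.59, 0 and 0.57 RPKM in WT, 0.50, 0.22, 0.43 and 0.63 RPKM in Wfs1HZ, and 0.98, 1.06, 1.11 and 0.59 RPKM in Wfs1KO. A WT animal and the lowest Wfs1KO animal were level, and the other 3 Wfs1KO animals were above all animals of both other genotypes. The log2 fold change was 1.86 ± 0.72 (SE; limma unadjusted p = 0.029, adjusted p = 0.84, exact permutation p = 0.057), and it depends on the pseudocount, ranging from 0.60 to 3.08 over the alternatives other than leaving out an animal. The unadjusted p went above 0.05 without WT replicate 1 or 3 or Wfs1KO replicate 1, 2 or 3. At most 38.7 reads per library stand behind these values. The gene overlaps exons of Gm15587 and Atg9b on the opposite strand (1040 and 294 bases), whose reads cannot be separated from its own without strand information. Atg9b was 0.12 to 0.32 RPKM in WT, 0.21 to 1.67 RPKM in Wfs1HZ and 0.08 to 0.74 RPKM in Wfs1KO.

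Vwf, the carrier of clotting factor VIII stored in endothelial granules (chr6:125546774-125686679, plus strand), was 0.54, 0.75, 0.74 and 0.67 RPKM in WT, 1.79, 3.81, 0.72 and 0.32 RPKM in Wfs1HZ, and 0.94, 1.05, 1.16 and 1.10 RPKM in Wfs1KO. The Wfs1KO animals did not overlap the WT animals, with a small step between them, and the Wfs1HZ animals lay on both sides. The log2 fold change was 0.59 ± 0.34 (SE; limma unadjusted p = 0.12, exact permutation p = 0.029). Esm1, a proteoglycan secreted by tip cells of sprouting vessels, was 3.17, 20.82, 13.11 and 3.02 RPKM in WT, 13.88, 14.39, 15.20 and 1.97 RPKM in Wfs1HZ, and 3.84, 3.37, 4.10 and 10.60 RPKM in Wfs1KO. It was low in 3 of the 4 Wfs1KO animals, but the WT animals 1 and 4 were as low, and the log2 fold change was -0.55 ± 0.66 (SE). Egfl7 (0.44), Rasip1 (0.63), Apold1 (0.65), Gpihbp1 (1.31) and Aqp1 (0.79) all had limma intervals that included 0. Gpihbp1 and Aqp1 were each listed at 0 in 1 WT animal.

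Erg, an ETS factor of endothelial identity (chr16:95359169-95586593, minus strand), was 1.28, 3.27, 2.93 and 1.62 RPKM in WT, 6.45, 7.78, 2.87 and 5.19 RPKM in Wfs1HZ, and 4.08, 7.16, 2.51 and 3.69 RPKM in Wfs1KO. Most mutant animals of both genotypes were above the WT animals, with 1 Wfs1HZ and 1 Wfs1KO animal inside the WT range. In Wfs1KO against WT the log2 fold change was 0.91 ± 0.41 (SE; limma unadjusted p = 0.055). The SOX factors Sox7 (0.26), Sox17 (-0.02) and Sox18 (-0.04) and the blood and vessel factor Tal1 (-0.39) had limma intervals that included 0, and Sox17 and Tal1 were below 1 RPKM on average.

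Lyve1 encodes the hyaluronan receptor of lymphatic endothelium (ENSMUSG00000030787.4, chr7:110850607-110863239, minus strand). It was 4.60, 3.96, 10.45 and 13.21 RPKM in WT, 10.56, 6.59, 10.67 and 6.45 RPKM in Wfs1HZ, and 3.57, 3.96, 2.88 and 2.20 RPKM in Wfs1KO. The Wfs1KO animals were low as a group: their highest value equalled the lowest WT value, and every Wfs1HZ animal was above them. Against WT the log2 fold change was -1.18 ± 0.41 (SE; 95% confidence interval -2.11 to -0.24), with a limma unadjusted p of 0.019, an adjusted p of 0.835 and an exact permutation p of 0.057. Without WT replicate 3, WT replicate 4 or Wfs1KO replicate 4 the limma unadjusted p was 0.0521 to 0.0576. WT replicate 4, one of the low pair for most vessel genes, had the highest Lyve1 of all 12 animals.

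Prox1, the homeobox gene that specifies lymphatic endothelium (chr1:190118035-190170714, minus strand), was 45.23, 67.60, 53.29 and 34.02 RPKM in WT, 50.29, 57.32, 48.49 and 23.92 RPKM in Wfs1HZ, and 26.02, 31.77, 21.83 and 57.59 RPKM in Wfs1KO. In Wfs1KO 3 of the 4 animals were below every WT animal and the fourth was above 3 of them, with a log2 fold change of -0.60 ± 0.32 (SE; limma unadjusted p = 0.094). The other lymphatic genes were far lower than Prox1. The lymphatic chemokine Ccl21a was listed at 0 in 10 of the 12 animals, and Mmrn1 was 0 to 1.56 RPKM. Macrophage genes did not share a direction in Wfs1KO against WT: the log2 fold change was 2.80 for C1qb (limma unadjusted p = 0.0016, adjusted p = 0.624) and 0.71 for Mrc1, both without overlap between animals, 0.02 for Csf1r, 0.25 for Emr1, -0.44 for C1qa and -0.70 for Cd68. In Wfs1KO against Wfs1HZ it was 1.46 for C1qb, 0.35 for Mrc1, -0.26 for Csf1r, -0.25 for Emr1, 1.20 for C1qa, without overlap, and 0.04 for Cd68. Of all 14 immune genes tested in that comparison, 5 were higher, with a median of -0.18. Lyz2 (-0.44), Itgam (-0.41) and Cd14 (-0.09) were among the lower ones. Against WT these were 0.04, -0.25 and 0.05. C1qb was only 0 to 0.29 RPKM in WT, 0 to 3.18 RPKM in Wfs1HZ and 0.57 to 2.13 RPKM in Wfs1KO. Mrc1 was 0.29 to 0.42, 0 to 2.64 and 0.45 to 1.48 RPKM. The WT values of both are near the level of 3 reads on 2 kb given above. The 14 immune genes tested summed to 73.0 to 206 RPKM in WT, 89.9 to 141 RPKM in Wfs1HZ and 47.7 to 150 RPKM in Wfs1KO. Most of these sums came from Cd68, at 11.1 to 142 RPKM over the 12 animals, and Cd14, at 22.7 to 100 RPKM. Wfs1HZ replicate 2 had the highest Ptprc (7.61 RPKM) and Emr1 (4.76 RPKM) of all animals but the lowest Wfs1HZ sum. The part of the immune genes in the Lyve1 and Prox1 values was not tested.

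Because most vessel genes shared the low pair of WT animals, single genes were also set against Pecam1 of the same library. That choice was made after the values had been seen, and the ratios are given without a test. Cdh5 per Pecam1 was 1.03 to 1.31 in WT, 0.761 to 1.47 in Wfs1HZ and 1.55 to 2.58 in Wfs1KO, so all Wfs1KO animals were above the other 8. Ramp2 per Pecam1 was 0.230 to 0.676 in WT, 0.0586 to 0.639 in Wfs1HZ and 0.0914 to 0.201 in Wfs1KO, below every WT animal. Lyve1 per Pecam1 was 0.246 to 2.18 in WT, 0.186 to 1.13 in Wfs1HZ and 0.182 to 0.257 in Wfs1KO, where the WT and Wfs1KO ranges meet at their ends. When the mean log2 level of 40 other endothelial genes was subtracted in each library instead, the median log2 fold change of the 32 genes in Wfs1KO against WT went from 0.53 to 0.11, and that of all entries from 0.07 to -0.35. Of all 21701 entries 1769 then had an unadjusted p under 0.05, of which 9.89% were higher, so that lower calls were common throughout. Cdh5 then had a log2 fold change of 0.93 (limma unadjusted p = 0.00415). That of Lyve1 was -1.60 (limma unadjusted p = 0.00287), that of Ramp2 -1.25 (limma unadjusted p = 0.00578) and that of Prox1 -1.02 (limma unadjusted p = 0.00801), while that of Pecam1 was 0.14. Nos3 (1.44) and Icam2 (0.49) no longer had an unadjusted p under 0.05, and the lowest adjusted p of the set was 0.545.

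**Figure D5:**
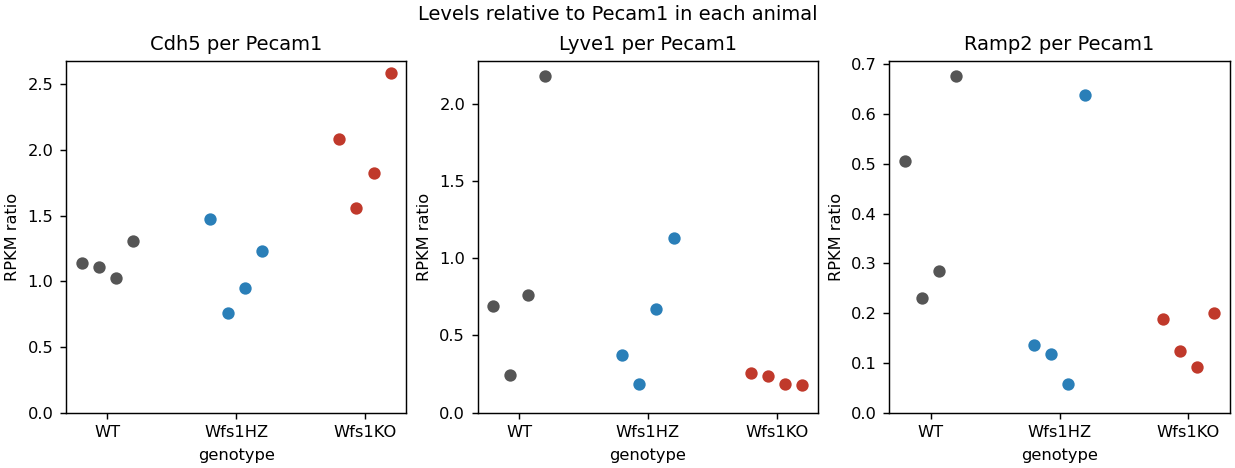
Ratio of RPKM of Cdh5, Lyve1 and Ramp2 to that of Pecam1 in each animal, by genotype. Wfs1KO animals lie above all others for Cdh5 (1.55 to 2.58) and below all WT animals for Ramp2 (0.0914 to 0.201).

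In Wfs1KO against Wfs1HZ 14 genes were higher and 18 lower, with a median log2 fold change of -0.06, beside 0.04 over all entries, 53.5% of which were higher. Without Wfs1HZ replicates 2 and 4, 5 genes were higher and the median was -0.38, beside 0.05 over all entries. Without replicate 4 alone it was -0.40, without replicate 2 alone 0.14 and without replicate 1 alone 0.21, so that the direction of the set rests on which Wfs1HZ animals are included. This comparison shares its Wfs1KO animals with the one above and its Wfs1HZ animals with the one below. No gene passed an FDR of 0.05 or 0.2 (limma; 0.0% of all entries did), and 1 of 32, Lyve1, had an unadjusted p under 0.05, against 2.45% of all entries in either direction and 0.756% in the downward one. Lyve1 was lower in Wfs1KO by a log2 fold change of -1.41 ± 0.33 (SE; 95% confidence interval -2.13 to -0.68), a fold of 2.65, with a limma unadjusted p of 0.0014, an adjusted p of 1 and an exact permutation p of 0.029. It was also the only gene of the set whose animals did not overlap, which held for 1.43% of all entries, and for 0.502% in the downward direction. The difference was -1.75 to -1.19 over the 19 alternatives, with an unadjusted p under 0.05 in each, Wfs1HZ replicates 2 and 4 left out included. Cdh5 (0.61 ± 0.46, SE), Nos3 (0.95 ± 0.58), Prox1 (-0.42 ± 0.36), Esm1 (-0.85 ± 0.65) and Ramp2 (-0.39 ± 0.53) did not differ beyond the spread between animals.

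In Wfs1HZ against WT 28 of the 32 genes were higher and 4 lower, with a median log2 fold change of 0.38, beside 0.04 over all entries, 53.2% of which were higher. No gene passed an FDR of 0.05 or 0.2 (limma; 0.0% of all entries), and Erg alone had an unadjusted p under 0.05 (3.12% of the set, 2.35% of all entries, of which 1.09% of all entries were higher). Its log2 fold change was 1.27 ± 0.44 (SE; limma unadjusted p = 0.016, adjusted p = 1), a fold of 2.40, and the exact permutation p was 0.086. No gene of the set had animals that did not overlap, against 1.66% of all entries. The spread between the Wfs1HZ animals was wide, and the largest difference, that of the lipase anchor Gpihbp1 (1.83 ± 0.90, SE), was measured on at most 26.7 reads per library. The lower genes were Ramp2 (-0.44), Cldn5 (-0.36), Prox1 (-0.18) and Cd34 (-0.07). Without Wfs1HZ replicate 4 the median log2 fold change was 0.91, beside 0.25 over all entries, and 6 genes had an unadjusted p under 0.05. Without both replicates 2 and 4 the median was 0.91, beside 0.01, and the count 3, made up of Plvap, Icam2 and Rasip1. After the level of the other endothelial genes was subtracted the median was -0.02, beside -0.37 over all entries, and the count 0. Erg was not among the genes counted in the last 2 settings or with sample weights, where its log2 fold change was 0.99, 0.86 and 0.87 (limma unadjusted p = 0.11, 0.073 and 0.061).

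Genes around the set were grouped by function and by cell type. Of 15 genes of VEGF, angiopoietin and apelin signalling, 12 were higher in Wfs1KO than in WT, with a median log2 fold change of 0.34, and only the tip cell peptide Apln had an unadjusted p under 0.05 (1.46 ± 0.52, SE; limma adjusted p = 0.835), at 0 to 0.18 RPKM in WT and 0.16 to 0.77 RPKM in Wfs1KO. Vegfa, the ligand of Kdr and Flt1, was 68.0 to 96.9 RPKM in WT, 66.2 to 96.8 RPKM in Wfs1HZ and 66.1 to 92.4 RPKM in Wfs1KO islets, with full overlap. Of 17 genes of Notch, ephrin and BMP9 signalling 15 were higher (median 0.30), with 0 below an unadjusted p of 0.05. Of the 40 other endothelial genes 32 were higher (median 0.40), and 4 had an unadjusted p under 0.05, all of them higher: the sphingosine-1-phosphate receptor S1pr1 (1.34), the prostaglandin transporter Slco2a1 (0.72), Tm4sf1 (0.86) and Ets1 (0.59). Of 10 lymphatic genes, which include Lyve1 and Prox1, 6 were higher, and Pdpn (1.51) and the valve factor Foxc2 (1.45) were higher and Lyve1 lower at an unadjusted p under 0.05. Pdpn was 0.82 to 2.70 RPKM in WT and 1.54 to 6.34 RPKM in Wfs1KO, with overlap. Foxc2 was low, at 0.12 to 0.53 RPKM in WT and 0.65 to 1.90 RPKM in Wfs1KO.

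Genes of other cells in and around the islet were measured in the same libraries. In Wfs1KO against WT 14 of 15 mural cell genes were higher (median log2 fold change 0.64), as were 10 of 10 basement membrane genes (0.41) and 10 of 10 fibroblast genes (1.20). Dcn, the matrix proteoglycan decorin, was 14.0 to 28.8 RPKM in WT and 42.0 to 73.1 RPKM in Wfs1KO, the clearest of them (1.39 ± 0.27, SE; limma unadjusted p = 6.0e-04, adjusted p = 0.435). The fibroblast genes summed to 21.3 to 71.7 RPKM in WT, 14.2 to 432 RPKM in Wfs1HZ and 65.9 to 150 RPKM in Wfs1KO, and the mural genes to 22.6 to 78.3, 24.6 to 292 and 43.6 to 117 RPKM. Of 14 acinar genes 3 were higher (-0.29), of 10 duct genes 5 (0.10), of 11 endocrine genes 5 (-0.25), of 14 immune genes 11 (0.24), of 8 erythroid and platelet genes 4 (-0.13) and of 6 Schwann and nerve genes 4 (0.24). At an unadjusted limma p under 0.05, 3 erythroid and platelet genes and 1 endocrine gene were lower (1.74% of all entries). Higher at that threshold were 2 immune genes, 1 acinar and 1 duct gene (3.91% of all entries). Hbb-b2 (-2.28), one of the 3, was 0.19 to 2.80 RPKM in WT and 0 to 0.51 RPKM in Wfs1KO. The acinar sums differed widely between animals of a genotype, at 52462 to 117710 RPKM in WT, 8848 to 302840 RPKM in Wfs1HZ and 8304 to 272870 RPKM in Wfs1KO. They were lowest in Wfs1HZ replicate 2 and Wfs1KO replicate 4. No gene of these lists passed an FDR of 0.05. In Wfs1HZ against WT 14 of 15 mural genes (0.74), 10 of 10 basement membrane genes (0.46), 9 of 10 fibroblast genes (0.85) and 36 of 40 other endothelial genes (0.38) were higher. In Wfs1KO against Wfs1HZ the medians of the mural (-0.16), basement membrane (-0.0079) and other endothelial genes (-0.0015) were near 0, while 9 of 10 fibroblast genes were higher (0.58). Without Wfs1HZ replicates 2 and 4 the medians in Wfs1HZ against WT were 0.67 for mural, 0.71 for basement membrane, 0.62 for fibroblast and 0.57 for other endothelial genes, and in Wfs1KO against Wfs1HZ 0.21, -0.36, 0.60 and -0.10. In Wfs1KO against WT the medians of all 14 lists, the 32 genes included, kept their sign with median-of-ratios scaling and with quantile normalization. With the latter the medians of the lymphatic (0.15), Schwann and nerve (0.056), immune (0.037), duct (0.027) and endocrine genes (-0.018) were nearer to 0. The part of these cells in the values of the 32 genes was not tested.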

How the data were processed

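Islet RNA of 4 WT, 4 Wfs1HZ and 4 Wfs1KO mice was sequenced by the authors on a SOLiD instrument from 10 ng of total RNA, with 75 bp forward and 35 bp reverse reads, mapped to mm10 with LifeScope and tested with edgeR on counts. The authors deposited RPKM values, 1 column per animal. The annotation and the counting tool are not given in the sources used here. RPKM are not counts, so the authors' test was not repeated.

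Genotype pairs were fitted separately on log2(RPKM + 0.1), without further scaling, with limma 3.58.1 (R 4.3.3), a variance trend and Benjamini-Hochberg adjustment over 21701 entries with a mean of at least 0.1 RPKM. All 32 genes passed that filter. Fold changes are on this scale, which understates changes of low genes. An exact permutation test (two-sided) of the mean log2 value was added for single genes. P-values set the difference between genotypes against the spread between animals. The fit was tested on simulated data. Depth was estimated from genes under 200 nt; between 71.4% and 82.7% of their values per library were whole reads within 0.1 of a read. Estimated reads are RPKM times the longest transcript (GENCODE M21) times depth. In Wfs1KO replicate 4 the depth that gives whole reads could be 3283500 or a multiple of it, and the lowest was used. This depth is that of the RPKM denominator, lower than the number of reads sequenced that the study states. Confidence intervals are at 95%.

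The 32 genes and the lists were chosen with earlier results of these data known. Values in every animal are given for genes with an unadjusted p under 0.05 in any comparison, for those whose Wfs1KO animals did not overlap another genotype, and for the 5 most abundant. Alternatives were each animal left out in turn, a block for the replicate number, weights per sample, 1 fit of all 12 samples, quantile normalization, scaling by median of ratios, a filter at 1 RPKM or none, and pseudocounts of 0.01 and 1. Subtracting the level of other endothelial genes, leaving out Wfs1HZ replicates 2 and 4, and the ratios to Pecam1 were added after the data had been seen. Same-numbered animals are different animals. Other steps used pandas 2.3.3 and scipy 1.17.1 under Python 3.11.15, and figures matplotlib 3.10.9.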

Additional observations from a re-analysis of the deposited data

Results flagged for a closer look

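In 8 of 96 groups of 4 animals (32 genes in 3 genotypes) the highest or lowest animal stood apart from the other 3 by Dixon's criterion on the log2 scale; chance gives about 1 in 20 groups. In Wfs1KO, replicate 4 was high for the junction protein Esam (6.35 RPKM) and for the tip cell proteoglycan Esm1 (10.6 RPKM) and low for the transcription factor Sox7 (0.83 RPKM). In Wfs1HZ, replicate 4, the library with the lowest median RPKM, was low for Robo4 (1.34 RPKM), Esm1 (1.97 RPKM) and Icam2 (0.52 RPKM). Wfs1HZ replicate 3 was low for Ramp2 (0.93 RPKM) and replicate 2 for Gpihbp1 (0.57 RPKM). No WT animal stood apart for any of the 32 genes by this criterion.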

How the results depend on the processing

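No gene of the set passed an FDR of 0.05 under any alternative, and the lowest adjusted p of limma was 0.112 (Lyve1, Wfs1KO against Wfs1HZ, sample weights). In Wfs1KO against WT the genes given with their values in every animal kept their direction in all 18 alternatives. Nos3, which the filter at 1 RPKM removes, was tested in 17 of them. Of all genes of the set tested, 0 to 4 changed sign in each. Counting the reported fit, the unadjusted p was under 0.05 there for Cdh5 in 19 of 19 fits (log2 fold change 0.93 to 1.57), Ramp2 in 18 of 19, Lyve1 in 16 of 19, Nos3 in 11 of 18 and Icam2 in 10 of 19. The median of the 32 genes was 0.33 to 0.70 with an animal left out. The number of genes with an unadjusted p under 0.05 was 8 with median-of-ratios scaling, 9 with sample weights and 3 to 11 with an animal left out. In Wfs1KO against Wfs1HZ it was 5 with sample weights, 2 without Wfs1HZ replicates 2 and 4, and 1 to 3 with an animal left out. The median there was -0.40 to 0.21 with an animal left out and -0.38 without Wfs1HZ replicates 2 and 4. In Wfs1HZ against WT the number of such genes was 2 with all 12 samples in one fit, 5 with sample weights, 0 after the level of other endothelial genes was subtracted, 3 without Wfs1HZ replicates 2 and 4, and 1 to 6 with an animal left out. The median there was 0.91 without Wfs1HZ replicates 2 and 4 (0.9146) and 0.19 to 0.91 with an animal left out. The causes were not tested.

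Directions changed for genes that passed no test. In Wfs1KO against Wfs1HZ sample weights gave Erg 0.24, Icam2 -0.42, Ramp2 0.41 and Vwf 0.11, and leaving out Wfs1HZ replicates 2 and 4 gave Emcn -0.24, Icam2 -0.52 and Ramp2 0.10. With an animal left out Vwf ranged from -0.65 to 0.42, Pecam1 from -0.81 to 0.068, Emcn from -0.030 to 0.70 and Icam2 from -0.42 to 0.45. In Wfs1HZ against WT subtracting the endothelial level gave Emcn -0.11, Esm1 -0.11 and Lyve1 -0.18, and leaving out Wfs1HZ replicates 2 and 4 gave Prox1 0.025. With an animal left out Esm1 ranged from -0.11 to 1.00, Lyve1 from -0.048 to 0.52, Emcn from -0.10 to 0.71, Ramp2 from -0.64 to 0.046 and Prox1 from -0.35 to 0.10.

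Scaling by median of ratios or quantile normalization changed the sign of 0 of the 32 genes in Wfs1KO against WT. It changed that of 2 genes under each in Wfs1KO against Wfs1HZ, and of 0 and 3 genes in Wfs1HZ against WT. With the replicate block the counts of genes with an unadjusted p under 0.05 were 4, 1 and 1 and the medians 0.53, -0.06 and 0.38. Deviations of same-numbered animals correlated at -0.24 to 0.11 in Wfs1KO and WT, -0.28 to 0.12 in Wfs1KO and Wfs1HZ and -0.07 to 0.34 in Wfs1HZ and WT. In the last pair of genotypes replicates 2 (0.31) and 4 (0.34) correlated best with their own number. Not every pair was over 0.1 and the labels name no shared source, so the numbers were not taken to pair the samples. Of all entries with an unadjusted p under 0.05 in Wfs1KO against WT, 69.2% were higher, against 56.6% with median-of-ratios scaling and 47.2% with quantile normalization. With a minimum mean of 1 RPKM 29 of the 32 genes were tested, and genes near 1 RPKM rest on few reads in the shallow libraries.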
